A study of Mus musculus with 4 samples.

Results

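The 9 genes described here encode organic ion transporters of the SLC22 and SLC17 families, namely Slc22a5, Slc22a7, Slc22a26, Slc22a27, Slc22a28, Slc22a29, Slc22a30, Slc17a1 and Slc17a2. They were chosen by symbol from a list drawn up with their measured difference between knockout and wild-type liver known, so that difference is described and not tested. Of 45037 probe sets on the array, 11 carried the symbol of 1 of these genes alone, for 8 of the 9 genes. A further probe set carried the symbols of both Slc22a30 and Slc22a29, and Slc22a28 had no probe set of its own. Liver RNA came from C57BL/6 mice, either wild type (WT) or with a liver-specific knockout of Baf60a (Baf60a LKO). Baf60a, now named Smarcd1, encodes BAF60a, 1 of the proteins of the SWI/SNF complex, which remodels chromatin. All mice of both groups ate a high-fat diet (D12492 of Research Diets) from 6 weeks of age and for 10 weeks, and livers were taken after a fast overnight. Each group had 2 Affymetrix Mouse Genome 430 2.0 arrays, each with an independent RNA pool. The number of mice in a pool, their sex and the Cre line were not given in the sources used here.

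SLC22 proteins move small organic cations, zwitterions and anions across the plasma membrane, and in liver several of them sit on the hepatocyte membrane that faces the blood. Slc22a5 encodes OCTN2, the sodium-dependent carnitine transporter, and Slc22a7 encodes OAT2, an organic anion transporter. Slc22a26 to Slc22a30 belong to a cluster of related organic anion transporter genes that expanded in rodents. SLC17 proteins were first described as sodium-dependent phosphate transporters. Slc17a1 encodes NPT1, which carries urate and other organic anions, and Slc17a2 encodes the related NPT3.

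The values are log2 expression levels after robust multi-array average (RMA) processing, and differences are LKO minus WT. A level is not comparable between probe sets, because each has its own probes. The median over all probe sets lay between 4.19 and 4.27 on the 4 arrays. WT replicate 1 stood slightly apart, with correlations of 0.987 to 0.991 with the other arrays, against at least 0.993 among those. The targeted gene, on its brighter probe set 1448913_at, read 5.62 and 5.88 in WT and 5.34 and 5.30 in LKO. A control probe set for the Cre recombinase, AFFX-r2-P1-cre-3_at, read 2.80 and 2.48 in WT and 5.87 and 6.22 in LKO, so the presence of Cre RNA followed the genotype labels. All 10 hepatocyte markers were clear of background on every array, with a median difference of 0.07. All 10 kidney tubule markers measured were lower in LKO, with a median of -0.28 and a range of the summed level of 7.55 to 7.71 in WT and 7.22 to 7.40 in LKO. Of these, 7 were clear of background on every array, Umod was clear on none, 0 passed the limma test at an adjusted p under 0.05 (2 at an unadjusted p under 0.05), and Slc22a12 and Slc22a6 on that list are themselves transporters of the same family. Most kidney tubule markers had a mean level below 5.38. Over all genes, 66.4% of those below that level were lower in LKO, against 33.4% of those above it. Of 7 cholangiocyte markers, 5 had a value, with a median of 0.39 and a summed level of 6.21 to 6.43 in WT and 6.83 to 7.18 in LKO. Of these 5, 4 were clear of background on every array and Cftr on none, 0 passed the limma threshold, and 2 had an unadjusted p under 0.05. The largest difference among them was that of Epcam, an epithelial adhesion gene, at 1.17 ± 0.21 (limma adjusted p = 0.154). The part of other cell types in the results was not tested. In bulk liver RNA, fewer cells of a type and less RNA per cell cannot be told apart.

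Of the 8 member genes with a value, 7 were lower in LKO and 1 was higher, with a median difference of -1.20 against a median of 0.00 over all 18193 genes. The pools did not overlap for 5 of the 7 lower genes, and 19.6% of all genes were lower without overlap. The 1 higher gene, Slc22a30, was also without overlap, as were 22.8% of all genes in that direction. Slc22a7, Slc22a26, Slc22a27, Slc22a29 and Slc17a1 were lower by at least 1 on the log2 scale, a size reached by 0.462% of all genes. Without WT replicate 1 the median of the 8 was -1.09, with Slc17a1 at -2.62, Slc22a29 at -1.79, Slc22a27 at -1.60, Slc22a26 at -1.11 and Slc22a7 at -1.07. Since the difference itself put these genes on the list, nothing is read from these shares. A low background level, the 95th percentile of 27 control probe sets for Bacillus transcripts, lay between 2.63 and 2.86 on the 4 arrays, and all 8 genes were above it on every array.

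**Figure D1:**
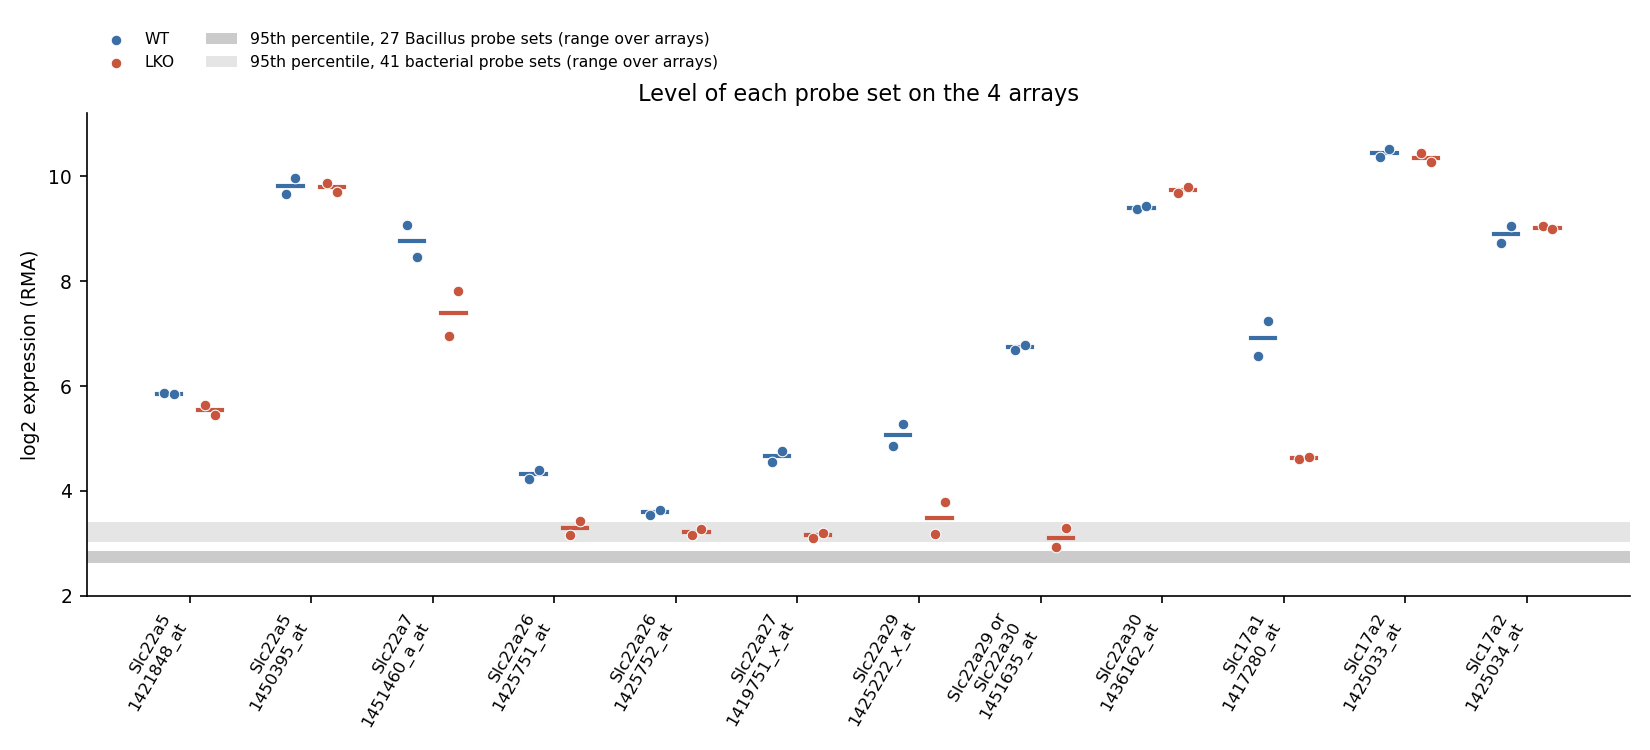
Log2 RMA level of each of the 12 probe sets, by symbol, on each of the 4 arrays; points are single arrays of WT and Baf60a LKO, and the darker and paler bands mark the background level of 27 controls, 2.63 to 2.86, and of 41, 3.02 to 3.42. The LKO points of Slc17a1, Slc22a7, Slc22a27 and Slc22a29 lie below every WT point, while those of Slc17a2 mix with the WT points.

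The carnitine transporter gene Slc22a5 did not separate by genotype on its brighter probe set. That probe set, 1450395_at, which stands for the gene, read 9.66 and 9.96 in WT and 9.86 and 9.70 in LKO. The pools overlapped, and the difference was -0.03 ± 0.15 (SE of the limma fit, 2 arrays per group). A dimmer probe set, 1421848_at, read 5.86 and 5.84 in WT and 5.63 and 5.44 in LKO, a difference of -0.32 ± 0.13 or 1.24-fold lower, without overlap. The brighter and the dimmer probe sets thus differed in the separation of pools.

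Slc22a7, the OAT2 gene, was lower in both LKO pools but had the largest standard error of the members. Its probe set 1451460_a_at read 9.07 and 8.45 in WT and 6.96 and 7.80 in LKO. The difference was -1.38 ± 0.33, or 2.60-fold lower. The gap between the groups, 0.644, was close to the 0.626 between the WT pools and below the 0.843 between the LKO pools. With 1 array left out at a time, the difference ranged from -1.80 to -0.96.

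**Figure D2:**
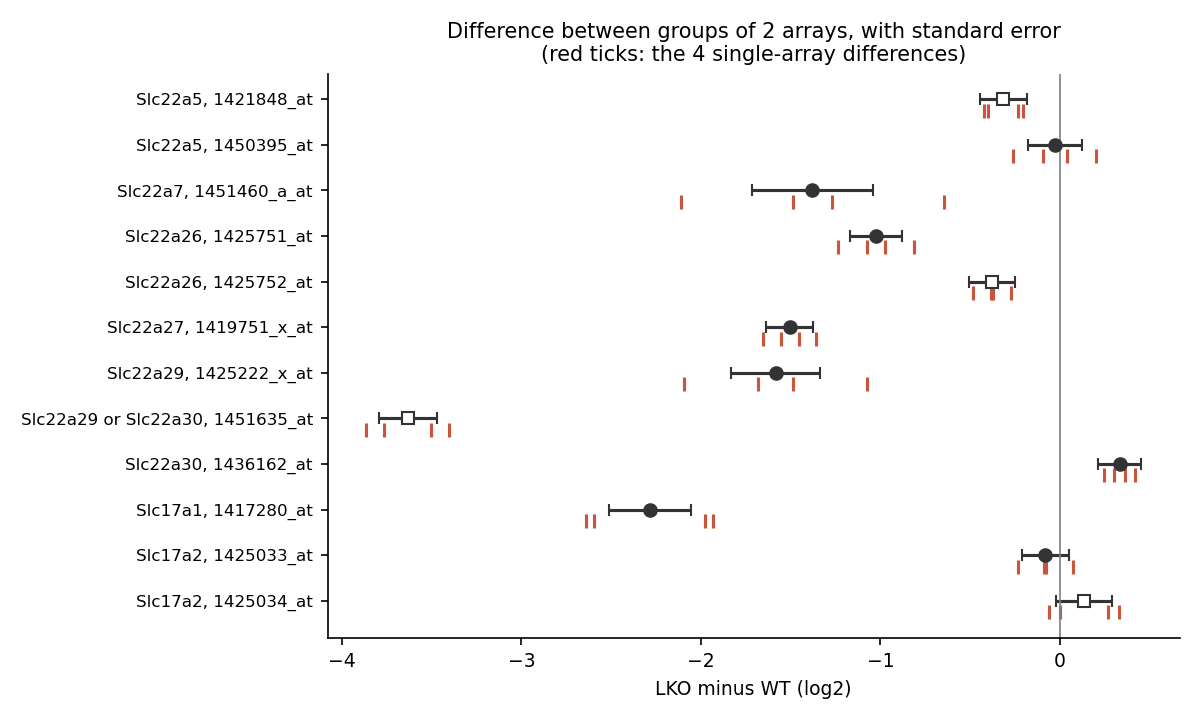
Difference of each probe set, LKO minus WT on the log2 scale, as a symbol with its standard error (filled circles stand for the gene, open squares are further probe sets); red ticks are the 4 differences between single LKO and WT arrays. The ticks of the probe set shared by Slc22a30 and Slc22a29 lie farthest below 0, and those of Slc22a30 alone lie above 0.

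The genes Slc22a26 to Slc22a30 lie in that order on chromosome 19 in the RefSeq annotation of GRCm38.p6, with no other gene that has a value between them. Of the 4 with a value, 3 were lower in LKO by over 1. The start regions of Slc22a28, Slc22a29 and Slc22a30 resemble each other more than any other pair of member promoters. The 250 bases upstream of each start, from RefSeq for GRCm38.p6, are shown here because these 3 windows are the most alike. They are written 5′ to 3′ on the minus strand, on which all 3 genes lie. No probe was compared with them. Capitals mark the 5 runs of at least 12 letters that all 3 windows hold, 73 of 250 bases or 29.2%, the longest of 16 letters.
Slc22a28, chr19:8131983-8132232: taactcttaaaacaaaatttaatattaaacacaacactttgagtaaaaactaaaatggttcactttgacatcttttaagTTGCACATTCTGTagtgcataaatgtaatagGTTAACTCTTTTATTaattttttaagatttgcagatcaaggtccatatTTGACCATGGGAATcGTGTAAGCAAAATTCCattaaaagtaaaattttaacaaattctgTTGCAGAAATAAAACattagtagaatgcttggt
Slc22a29, chr19:8218901-8219150: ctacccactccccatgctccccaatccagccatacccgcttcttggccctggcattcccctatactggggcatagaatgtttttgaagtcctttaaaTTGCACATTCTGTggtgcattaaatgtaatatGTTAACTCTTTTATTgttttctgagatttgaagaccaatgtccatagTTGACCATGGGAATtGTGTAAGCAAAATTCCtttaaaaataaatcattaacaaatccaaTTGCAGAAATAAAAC
Slc22a30, chr19:8405106-8405355: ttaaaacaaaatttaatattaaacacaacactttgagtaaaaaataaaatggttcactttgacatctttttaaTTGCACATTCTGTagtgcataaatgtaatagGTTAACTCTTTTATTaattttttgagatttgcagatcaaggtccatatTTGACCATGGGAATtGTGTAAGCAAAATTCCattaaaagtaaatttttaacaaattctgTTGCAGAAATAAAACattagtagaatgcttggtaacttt
Slc22a28 and Slc22a30 had 93.0% identical letters over the aligned columns. Slc22a28 and Slc22a29 had 65.1%, and Slc22a29 and Slc22a30 had 65.2%. The 33 other pairs of the 9 windows, which include 2 starts of Slc17a1, ranged from 38.6 to 56.1% with a median of 49.3%.

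**Figure D3:**
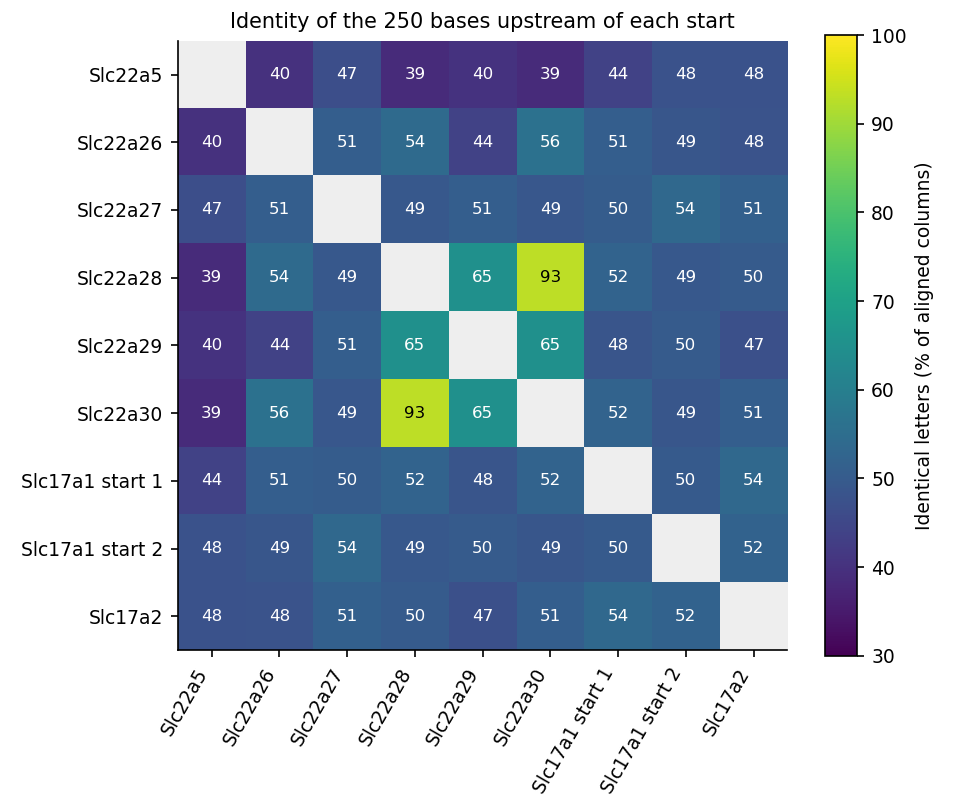
Percent of identical letters over aligned columns for each pair of the 250 bases upstream of a start, for 9 windows of 8 member genes. The square of Slc22a28 and Slc22a30 is the highest at 93.0%, and most other squares lie between 38.6 and 56.1%.

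The HNF1 core GTTAAC, searched on both strands, was found in the windows of Slc22a28, Slc22a29 and Slc22a30, in a run shared by all 3, and in 2.56% of 32851 RefSeq windows of that length. The related GTTAAT was found in Slc22a29 alone among the members, and in 6.43% of windows. TTCNNNGAA, a palindrome of the STAT type, was found in Slc22a26, in the second start of Slc17a1 and in Slc17a2, and in 7.02% of windows. TATAAA, in 12.4% of windows, CAAAGTCCA, in 0.384%, the full HNF1 palindrome, in 0.00913%, and a spaced direct repeat of the nuclear receptor core, in 0.0152%, were found in none of the 9 windows. A match of letters is a description of the window and not a site of binding. No window of Slc22a7 was read.

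Slc22a26 read 4.24 and 4.40 in WT and 3.16 and 3.42 in LKO on its probe set 1425751_at, and the pools did not overlap. The difference was -1.03 ± 0.14. Its second probe set, 1425752_at, read 3.55 and 3.65 in WT and 3.16 and 3.27 in LKO, a difference of -0.38 ± 0.13, also without overlap. The LKO values lay 0.53 and 0.71 above the background level on the first probe set, and 0.53 and 0.56 on the second. No fold is given for either. With the mean of both probe sets in place of the brighter one, the difference was -0.70.

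Slc22a27, on the probe set 1419751_x_at, read 4.56 and 4.76 in WT and 3.10 and 3.20 in LKO. The groups lay apart, with a difference of -1.51 ± 0.13. The LKO values lay only 0.47 and 0.49 above the background level, and no fold is given. The suffix _x marks probes that can also match other sequences, and without such probe sets the gene has no value.

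Slc22a29, on 1425222_x_at, read 4.86 and 5.27 in WT and 3.18 and 3.78 in LKO. The groups did not overlap, and the difference was -1.58 ± 0.25. The suffix _x applies to this probe set too, and without such probe sets Slc22a29 has no value. The probe set that carries both Slc22a30 and Slc22a29, 1451635_at, read 6.69 and 6.79 in WT and 2.92 and 3.29 in LKO. That is -3.63 ± 0.16, and the lowest WT pool stood 3.40 above the highest LKO pool. Both LKO values lay within 0.58 of the background level, and no fold is given. The platform annotation derives the shared probe set and the Slc22a29 probe set from the same sequence entry.

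Slc22a30 itself, on 1436162_at, ran the other way. It read 9.37 and 9.43 in WT and 9.67 and 9.79 in LKO, a difference of 0.33 ± 0.12 or 1.26-fold higher, with a gap of 0.245 between groups. Across these 2 probe sets that name Slc22a30, the difference was 0.33 on the one of its own and -3.63 on the shared one. The annotation gives the shared one both symbols and the sequence entry of the Slc22a29 probe set. Which transcript it reads was not tested. Related copies can share probes, and no probe or transcript sequences were compared, so the single values of Slc22a26 to Slc22a30 are uncertain. Slc22a28 has no value here.

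The LKO levels of Slc22a26, Slc22a27 and Slc22a29 lay close to background. Above the background level of each array, in log2 units, Slc22a26 was 1.37 and 1.77 higher in the WT pools, and 0.53 and 0.71 higher in the LKO pools. Slc22a27 cleared it by 1.70 and 2.13 in WT, and by 0.47 and 0.49 in LKO. Slc22a29 cleared it by 1.99 and 2.64 in WT, and by 0.54 and 1.07 in LKO. For the shared probe set the values were 3.82 and 4.16 in WT and 0.29 and 0.58 in LKO. Over all genes, those below a mean level of 5.38, where Slc22a26, Slc22a27 and Slc22a29 lie, had a median difference of -0.08 and 0.231% were lower by at least 1. Those above it had a median of 0.08, and 0.693% were lower by at least 1. Against a wider set of 41 bacterial controls, chosen after the values were seen, with 95th percentiles of 3.02 to 3.42, the shared probe set was clear on 1 of the 2 LKO arrays, and the other 11 probe sets were clear on all 4.

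Slc17a1, the NPT1 gene, had the largest difference among the single-symbol probe sets. Its probe set 1417280_at read 6.58 and 7.24 in WT and 4.60 and 4.65 in LKO. The LKO pools differed by 0.0439 and the WT pools by 0.665, and the groups were 1.93 apart. The difference was -2.29 ± 0.23, or 4.87-fold lower. Both LKO pools stayed above background, by 1.97 and 1.94.

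Slc17a2, the NPT3 gene, did not separate by genotype. Its brighter probe set, 1425033_at, read 10.36 and 10.51 in WT and 10.43 and 10.27 in LKO, with overlap and a difference of -0.08 ± 0.13. Its second probe set, 1425034_at, read 8.72 and 9.05 in WT and 9.05 and 8.99 in LKO, with overlap and a difference of 0.13 ± 0.15. Slc17a2 and Slc17a1 lie near each other on chromosome 13 with Slc17a3 between them, and Slc17a3 read 0.46 ± 0.11 higher in LKO (limma adjusted p = 0.288).

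Slc17a3 encodes NPT4, a further urate and anion carrier. The next gene in order beyond Slc17a1 and Slc17a4, which has no value here, is Scgn at -0.27. The largest difference among the neighbours of the Slc17a run was 0.56 ± 0.12, for Cmah (limma adjusted p = 0.202), followed by -0.48 ± 0.17, for H1f6 (limma adjusted p = 0.441). Around the Slc22a26 to Slc22a30 run, Slc22a19 differed by -0.13, Slc22a8 by 0.03 and Slc22a6 by -0.22. The largest difference among the neighbours considered there was -0.31, for 9830166K06Rik. Around Slc22a5 it was 0.20, for Rad50, and around Slc22a7 it was 0.32, for Zfp318. None of the 25 neighbouring genes passed the limma threshold, 3 had an unadjusted p under 0.05, and 12 were lower and 13 higher, with a median of 0.01. Over all 18193 genes, 88 passed, which is 0.484%, with 0.247% lower and 0.236% higher, and 1853 had an unadjusted p under 0.05.

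**Figure D4:**
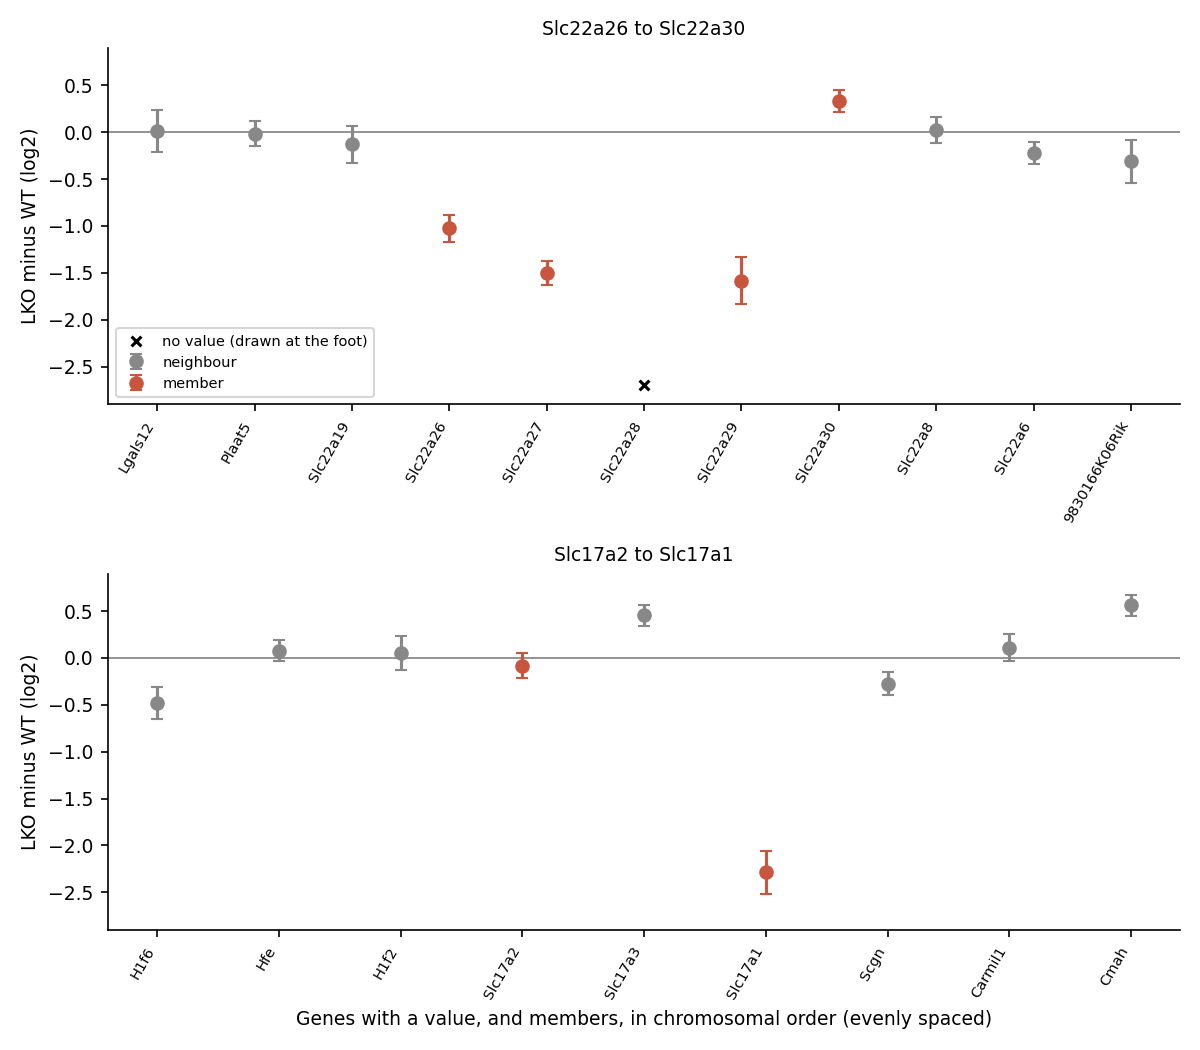
Difference, LKO minus WT on the log2 scale with standard errors, for the runs Slc22a26 to Slc22a30 and Slc17a2 to Slc17a1. The 3 nearest genes with a value on each side are included, in chromosomal order. Slc22a5, Slc22a7 and their neighbours are not drawn. Slc22a26, Slc22a27, Slc22a29 and Slc17a1 lie below -1, and every neighbour drawn lies between -0.48 and 0.56.

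None of the other genes of both families passed the threshold. Of 18 other Slc22a genes, 15 had a value, none passed the limma threshold and 0 had an unadjusted p under 0.05, 12 were lower, and the median was -0.13 with a range of -0.28 to 0.12. Most of the 15 had a mean level below 5.38, where 66.4% of all genes were lower in LKO. Of 7 other Slc17a genes, 5 had a value, none passed, 2 had an unadjusted p under 0.05, and the median was 0.08. Slc17a6, a vesicular glutamate transporter gene, differed by -0.58 and was above background on 2 of 4 arrays.

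Among 25 further organic ion and drug carriers, 22 had a value and 1 fell. Slco1a4, an organic anion uptake carrier of the OATP family, read 8.36 and 8.14 in WT and 4.38 and 4.62 in LKO, a difference of -3.75 ± 0.15 (limma adjusted p = 0.00145). With any 1 array left out, its adjusted p lay between 0.0272 and 0.0816. Slco1a1, a further OATP gene, differed by -0.98 ± 0.18 without passing the threshold (limma adjusted p = 0.155). All 12 ATP-driven exporters had a value, and 1 fell. Abcc3, the MRP3 exporter of the basolateral membrane, read 11.49 and 11.46 in WT and 10.39 and 10.52 in LKO, a difference of -1.02 ± 0.12 (limma adjusted p = 0.0444, and 0.114 to 0.601 with any 1 array left out). Over the 4 lists of other transporters, 54 of 62 genes had a value, 2 fell, 0 rose, and the median was -0.07. An unadjusted limma p under 0.05 was found for 12 of the 54, and for 1853 of all 18193 genes, while 0.247% of all genes fell past the threshold. The lists too were drawn up with earlier results of these data known, so no enrichment is read from these counts. Without WT replicate 1, Slco1a4 differed by -3.64 and Abcc3 by -1.004. That fit rests on 1 WT array, so no count of genes past the threshold is read from it.

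In the carnitine handling list, drawn up around the substrate of OCTN2, 10 of 11 had a value and none passed, with 3 at an unadjusted limma p under 0.05. Crot, a peroxisomal acyltransferase gene, differed by 0.55, Crat, a carnitine acetyltransferase gene, by 0.50, and Cpt2, of the mitochondrial carnitine shuttle, by 0.24. Hsdl2, listed there though a part in carnitine handling was not tested, differed by 0.42. Cpt1a, of the same shuttle, chosen after its value was seen, differed by 0.00. In the urate and purine list, which holds genes around a substrate of NPT1, 8 of 9 had a value and none passed, with 0 at an unadjusted limma p under 0.05. Slc2a9, a urate carrier gene, differed by 0.21, the largest of the list. Uox, the urate oxidase gene, and Xdh, the xanthine oxidoreductase gene, chosen after their values were seen, differed by 0.01 and -0.08.

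Among 25 regulators and scaffolds of these transporters, 22 had a value and 1 fell. Nr1i3, the gene of the xenobiotic receptor CAR, read 11.21 and 11.26 in WT and 6.33 and 6.58 in LKO, a difference of -4.77 ± 0.14 (limma adjusted p = 0.000591, and 0.0226 to 0.0742 with any 1 array left out). Pdzk1, a scaffold for membrane transporters, differed by 0.45, Onecut1 by -0.47 and Nfe2l2, the NRF2 gene, by 0.47, none past the threshold. Ahr, Ppara and Hnf4a were chosen after their values were seen. Ahr differed by -0.38 and Ppara by 0.04. Hnf4a, a hepatocyte factor, differed by -0.19, and by 0.36 without probe sets that can match other sequences.

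**Figure D5:**
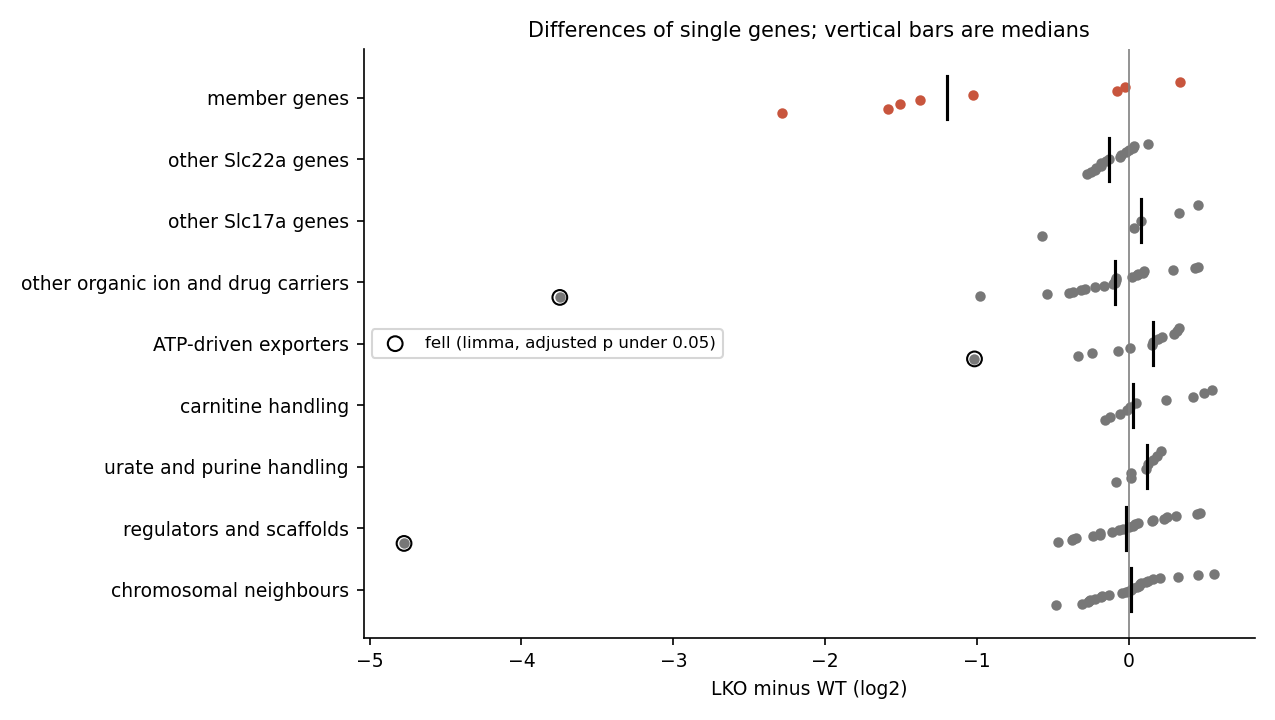
Differences, LKO minus WT on the log2 scale, of single genes of the members and of each list; each point is a gene, each vertical bar a median, and ringed genes of the lists fell past the limma threshold. The member median lies at -1.20, and the medians of the other lists lie between -0.13 and 0.15.

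Pattern likeness was measured as the Euclidean distance over the 4 arrays after the WT mean of each gene was subtracted. The 5 genes nearest to Slc17a1 were Pparg at 0.139, Themis at 0.226, Olig1 at 0.366, Slc39a4 at 0.419 and Wfdc21 at 0.529. The 5 nearest to Slc22a30 were Agpat5 at 0.0269, Itih3 at 0.0296, Naa40 at 0.0349, Wnt4 at 0.0387 and Acot3 at 0.0427. With 4 arrays, these distances describe the arrays and not a relation of the genes.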

How the data were processed

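The deposited values are log2 expression values, 1 for each probe set on each array. Per the submitters' notes on processing, they were made with affy, limma and robust multi-array average (RMA), with no versions. Arrays hold no read depth, and the number of arrays limits the precision. Of 45101 probe sets, 64 controls were left out. Symbols came from the platform annotation, where 34945 probe sets had 1 symbol, 932 had several and 9160 were not listed; 34741 were matched to RefSeq by Entrez number and 204 kept the symbol given. Each of 18193 genes stands by its probe set with the highest mean. LKO was set against WT in limma 3.58.1 under R 4.3.3, using lmFit, eBayes and 2-sided tests, with Benjamini-Hochberg adjustment over all genes, 2 residual and 3.54 prior degrees of freedom. Errors are standard errors of that fit. The p-values set each difference against the spread between pools, moderated by that of all genes. The spread between single mice was not measured. Member genes and lists were chosen with earlier results of these data known. Named genes are the members, list genes past the threshold, up to 4 largest differences per list, the largest neighbour per run and the 5 genes nearest in pattern. Promoters were aligned with Biopython 1.88 and figures drawn with matplotlib 3.10.9 in Python 3.11.15. Alternatives were other normalizations, the brighter 50% of genes, the mean of probe sets, no _x_at or _s_at probe sets, eBayes with trend and robust settings, the replicate number as a block and leaving out each array. A set of 41 background controls was added after seeing the data. The fit was tested on simulated data.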

Additional observations from a re-analysis of the deposited data

How the results depend on the processing

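Over all 18193 genes, limma called 88 as deposited. Fits with other settings called 142 after cyclic loess, 154 with array medians subtracted (91 higher and 63 lower, against 43 and 45) and 216 with a trended and robust eBayes, and each of these 3 sets held all 88. Leaving out 1 array gave 0 to 17 calls, 0 without WT replicate 1 (1630 genes at an unadjusted limma p under 0.05), 3 without WT replicate 2, 10 without LKO replicate 1 and 17 without LKO replicate 2. The labels give both groups replicates 1 and 2 but do not say that a number pairs pools, and same-numbered deviations correlated at 0.143; a replicate block gave 19 calls and called 1 of the 54 other transporters, where Abcc3 had an adjusted p of 0.147. The 54 other transporters had 2 calls as deposited, 4 with the trended and robust eBayes and 0 to 1 with 1 array left out. The median difference of the members, -1.20, was -0.081 over the 5 members among the brighter 50% of genes, -0.55 over the 6 with a value without _x_at and _s_at probe sets, and -1.35 to -0.93 with 1 array left out. Slc22a5, at -0.03, was above 0 with array medians subtracted (0.0038) and ranged from -0.18 to 0.12 with 1 array left out, at 0.12 without WT replicate 2 and 0.05 without LKO replicate 2. Slc17a2, at -0.08, was 0.026 with the mean of its probe sets. Slc22a30 was 0.26 after loess. The other members kept their direction under every alternative that gave them a value.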
